A study of Mus musculus with 22 samples.

Results

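Probesets with a signal in the brains of C57BL/6J mice (B6) and little or none in those of DBA/2J mice (D2) were taken from the exon array table of both strains. A probeset is a small group of array probes that reads 1 stretch of a gene, usually an exon or part of one. Members were selected on the strain means of the log2 values: a probeset was a member if its mean was at least 3.5 over the 10 B6 arrays and at most 1.5 over the 12 D2 arrays. The rule selected 362 of the 1190406 probesets with values, or 0.123% of the 293791 probesets with a B6 mean of at least 3.5. The members therefore differ between the strains by construction, and their strain difference is described here without a test.

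The study set out to compare alternative splicing between whole brains of the strains. All mice were naive adult males, without treatment, and each array of the Affymetrix Mouse Exon 1.0 ST type held the total RNA of 1 mouse. The labels give no age in weeks. Of the 24 arrays hybridised, those read on another scanner are not in the set per the labels, which leaves 10 B6 and 12 D2 mice.

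Exon arrays read a gene with several probesets, so a gene that is not transcribed is low along its whole length, whereas an exon that is skipped is low at single probesets. C57BL/6J is the strain of the mouse reference genome, from which the probes were designed. A D2 sequence variant under the probes, or a segment missing from the D2 genome, lowers the D2 signal as well, with or without a change of the transcript. Variant calls of D2, the probe sequences and the positions of the probesets along their genes were not used here, so these cases cannot be told apart for any member. In RNA of a whole brain, fewer cells of a type and less RNA per cell cannot be told apart either.

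The words "detected in B6 only" stand for the limits on the strain means and do not hold on every single array. The deposited table gives no detection calls, so detection was not shown for either strain. Its array medians lay between 1.41 and 1.51, and 50.8% of all probesets had a D2 mean of at most 1.5, against 24.7% with a B6 mean of at least 3.5. A D2 value of 1.5 or less is thus in the lower part of the array, where background dominates. The log2 differences of members are printed as measured. Since their D2 end lies near background they may understate the true difference, and their SE covers only the spread between mice. Their order is used only to choose examples.

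Among 80 named genes with a member, 16 were low in D2 at most of their probesets with a B6 mean of at least 3.5, and are called gene-wide here. As members that were low together, 5 of them are shown with the 250 bases before the start of transcription: the glaucoma gene Myoc, the carbohydrate kinase gene Fggy and the long noncoding gene 1500004A13Rik, which are among the genes with the most members, and the neighbouring zinc finger genes Zfp33b and Zfp951. They are from RefSeq, build GRCm38.p6, which is B6 sequence and shows nothing of D2, and capitals mark TATAAA and CCAAT on either strand (the opposite strand reads TTTATA and ATTGG). The windows are Myoc at chr1:162638900-162639149 on the plus strand, Fggy at chr4:95557257-95557506 on the plus strand, 1500004A13Rik at chr3:88832548-88832797 on the minus strand, Zfp33b at chr5:104571422-104571671 on the plus strand and Zfp951 at chr5:104860069-104860318 on the minus strand.
Myoc: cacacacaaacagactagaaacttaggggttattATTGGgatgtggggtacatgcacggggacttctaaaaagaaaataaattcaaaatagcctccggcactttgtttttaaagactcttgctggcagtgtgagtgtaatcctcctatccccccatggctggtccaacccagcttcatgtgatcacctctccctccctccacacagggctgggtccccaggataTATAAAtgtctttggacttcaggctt
Fggy: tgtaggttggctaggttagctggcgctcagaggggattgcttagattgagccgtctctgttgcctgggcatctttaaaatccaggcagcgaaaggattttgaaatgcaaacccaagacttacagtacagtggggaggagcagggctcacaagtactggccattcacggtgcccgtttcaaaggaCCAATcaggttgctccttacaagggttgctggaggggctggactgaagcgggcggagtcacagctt
1500004A13Rik: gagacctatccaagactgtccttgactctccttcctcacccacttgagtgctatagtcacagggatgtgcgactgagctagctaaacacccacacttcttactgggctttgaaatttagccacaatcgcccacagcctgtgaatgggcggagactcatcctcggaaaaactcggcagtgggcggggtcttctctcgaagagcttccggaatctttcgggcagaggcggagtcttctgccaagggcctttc
Zfp33b: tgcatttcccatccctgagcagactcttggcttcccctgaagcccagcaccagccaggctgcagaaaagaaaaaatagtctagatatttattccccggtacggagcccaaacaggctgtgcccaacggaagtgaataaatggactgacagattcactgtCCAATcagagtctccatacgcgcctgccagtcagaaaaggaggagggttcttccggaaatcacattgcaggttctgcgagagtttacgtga
Zfp951: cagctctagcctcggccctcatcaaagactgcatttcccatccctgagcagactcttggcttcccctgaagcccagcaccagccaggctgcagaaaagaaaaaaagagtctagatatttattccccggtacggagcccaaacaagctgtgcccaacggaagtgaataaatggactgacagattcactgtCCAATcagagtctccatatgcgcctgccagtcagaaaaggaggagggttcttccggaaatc

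All 16 genes had a window in the RefSeq table. Myoc has TATAAA beginning 26 bases before its start and CCAAT on the opposite strand 216 bases before it. Fggy has CCAAT at 66 bases, Zfp33b at 91 and Zfp951 at 61, whereas neither motif occurs in the window of 1500004A13Rik. Of all 32851 windows of this length in the table, 12.4% hold TATAAA and 33.8% hold CCAAT on either strand. Myoc has 2 CG pairs, Fggy 7, 1500004A13Rik 10, Zfp33b 8 and Zfp951 6, against a median of 6 over all windows. The windows of Zfp33b and Zfp951 are nearly the same sequence: over 221 aligned positions 217 were identical, 3 differed and 1 was a gap. The transcripts and probes of these genes were not compared, so whether a probeset of 1 gene also reads RNA of the other was not tested.

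The members were mostly moderate in B6. Their B6 means reached up to 9.11 with a median of 4.31, and their D2 means reached down to -0.24 with a median of 0.90. Of the 362 members, 122 had a B6 mean under 4 and 37 one of at least 6. The D2 minus B6 difference had a median of -3.61 and ranged from -7.80 to -2.05. It was -4 or lower in 135 members and -5 or lower in 48. The median over all probesets with a B6 mean of at least 3.5 was -0.025.

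**Figure D1:**
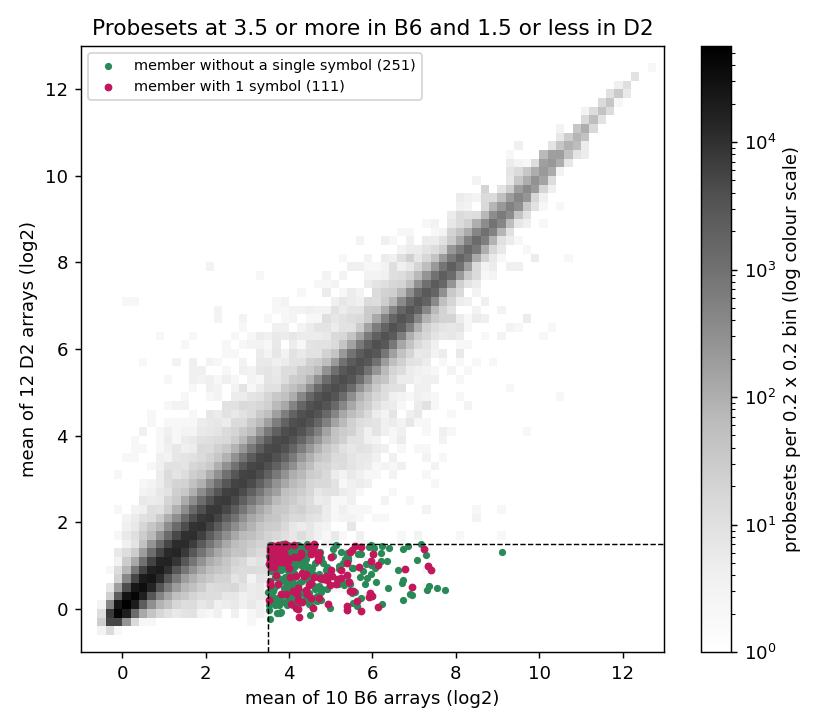
Mean log2 value of each probeset over 10 B6 arrays (x axis) and 12 D2 arrays (y axis); grey bins count all probesets, points are the 362 members and the dashed lines are the limits of the rule at 3.5 and 1.5. The members fill the lower right corner, with a median B6 mean of 4.31 and the highest at 9.11.

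The arrays of single mice were mostly separated by strain. In 344 members (95.0%) every B6 array lay above every D2 array, which was the case for 0.253% of all probesets and for 0.848% of those with a B6 mean of at least 3.5. Since the rule used the strain means, nothing is read from this excess. The lowest B6 array was at least 1 above the highest D2 array in 286 members. The share over all probesets was not computed for this margin, so nothing is read from that count either. The SD among mice had a median of 0.47 in B6 and 0.45 in D2.

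The number of members at 3.5 or above was 276 to 339 on single B6 arrays and 0 to 1 on single D2 arrays. The median of the members was 4.11 (replicate 1) to 4.73 (replicate 5) on the B6 arrays and 0.72 to 0.86 on the D2 arrays. Of the B6 arrays, replicate 5 had both the highest median of the members and the lowest median of all probesets, at 1.41. Only 2 members reached 3.5 on any D2 array: the unnamed probeset 4468370, at 3.58 on D2 replicate 14, and the unnamed probeset 5426281, at 3.82 on D2 replicate 19. Conversely, 6 members were at or under 1.5 on at least 1 B6 array.

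The strains overlapped in 18 members, of which 4 had a named gene. These were 1 probeset each of 4833420G17Rik, of the kinesin-associated gene Kifap3, of the replication helicase gene Mcm6 and of the nuclear receptor gene Nr1i3. The Nr1i3 probeset ranged from 1.48 to 5.19 in B6, with a median of 3.77, and from 0.51 to 2.07 in D2, with a median of 1.52. On 7 D2 arrays its value was at or above that of the lowest B6 array, replicate 1. Only this 1 B6 array was at or below the highest D2 array, so the overlap came from 1 B6 mouse.

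The limits of the rule cut through a continuous distribution. The members with the lowest B6 means were at 3.502, 3.513 and 3.514, the last of these in Tmem18, and the nearest probesets outside were at 3.495, 3.488 (Senp1) and 3.480 (Mcmdc2). On the D2 side the members nearest to the limit were at 1.498, 1.494 (A830036E02Rik) and 1.493, and the nearest outside were at 1.501, 1.504 (Gm5113) and 1.507. There were 68 members with a B6 mean less than 0.25 above its limit, and 81 further probesets up to 0.25 below it that met the D2 limit. Likewise, 85 members had a D2 mean less than 0.25 below its limit, and 112 further probesets that met the B6 limit had one up to 0.25 above it.

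Most members had no gene name. The platform annotation lists 1 gene symbol for 111 members, several for 1 (the granzyme genes Gzme and Gzmd) and none for 250. Members without a symbol made up 69.1% of all members, against 40.0% of the probesets with a B6 mean of at least 3.5. Put differently, 0.213% of such probesets without a symbol were members and 0.0640% of those with 1 symbol. The gap varied with the level: at a B6 mean from 3.5 to under 4, 0.273% of the unnamed and 0.202% of the named probesets were members, and from 6 to under 7 these shares were 0.203% and 0.0137%. At 8 or above only 1 unnamed (0.0185%) and 0 named probesets were members. A probeset without a symbol is unnamed here, which does not mean that no gene lies there.

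The 6 unnamed members with the largest differences are given by their probeset number. Probeset 5578785 was the brightest member of all, at 8.79 to 9.39 in B6 with a median of 9.14, and at 0.41 to 2.87 in D2 with a median of 1.09 (difference -7.80 ± 0.21, SE). Probeset 5497706 was at 7.00 to 8.58 in B6, with a median of 7.56, and at -0.16 to 1.55 in D2, with a median of 0.48. In both, the strains were separated by more than the full range within either strain. The others were 4892329 (7.55 ± 0.32 in B6 and 0.47 ± 0.38 in D2, SD), 4917474 (7.30 ± 0.27 and 0.44 ± 0.35), 5028995 (7.35 ± 0.20 and 0.53 ± 0.59) and 4958102 (6.95 ± 0.18 and 0.33 ± 0.34). No array of either strain overlapped the other strain in any of these. Of the 48 members with a difference of -5 or lower, 32 were unnamed.

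The 111 members with 1 symbol belonged to 80 genes, 0.506% of the 15804 genes with a probeset at a B6 mean of at least 3.5. Of these genes, 67 had 1 member, 8 had 2 and 5 had 3 or more. To separate genes low at most probesets from genes low at few, the other probesets of each gene with a B6 mean of at least 3.5 were examined. Probesets below that level in B6 were not read for this. A gene was called gene-wide if all its such probesets were members, or if the median difference of the others was -1 or lower. It was called local if that median was above -0.5, and intermediate in between. By this rule 16 genes were gene-wide, 9 intermediate and 54 local, and Trim12a, a TRIM-family gene whose member was its only probeset at that level, could not be decided.

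These classes differed in how many of the other probesets were called lower in D2 by limma at a Benjamini-Hochberg adjusted p under 0.05. The calls were 108 of 122 other probesets in the gene-wide genes (88.5%), 31 of 52 in the intermediate genes (59.6%) and 105 of 912 in the local genes (11.5%). Over all named probesets with a B6 mean of at least 3.5 this share was 2.74%. The classes were cut on the same contrast, so these shares describe them and test nothing. Among all 13502 genes with at least 2 probesets at that level, the gene median was -1 or lower in 0.467% and above -0.5 in 97.4%. This gene median took in all probesets at that level, members included, whereas the classes used only the others.

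The 3 genes with the most members were all gene-wide. Fggy, which encodes a carbohydrate kinase, held 9 members among 15 probesets at a B6 mean of at least 3.5. The median over these 15 was 5.03 to 5.52 in B6, with a median of 5.21 over mice, and 1.07 to 1.93 in D2, with a median of 1.46. All 6 others also lay at -1 or lower, with a median difference of -2.81 and a range of -3.68 to -2.51. Its leading member was at 5.27 to 5.93 in B6 (median 5.66) and at -0.28 to 0.95 in D2 (median 0.12), a difference of -5.44 ± 0.13 (SE). No Fggy probeset that was measured at that level in B6 stayed at the B6 value in D2.

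The class also held 3 long noncoding genes. 1500004A13Rik held 6 members among 17 probesets, and its 11 others had a median difference of -3.87 (range -6.43 to -0.86). Its gene median was 6.75 to 7.45 in B6 (median 7.14) and 1.77 to 2.44 in D2 (median 1.93). Of the 11 others, which missed the rule by a D2 mean above 1.5, 10 were at -1 or lower. The D2 means of the 11 ranged from 1.61 to 6.45, so some probesets of this gene kept a clear signal in D2. A830036E02Rik held 5 members among 8 probesets, with a median of -3.57 over the remaining 3. Its gene median was 4.64 to 5.38 in B6 (median 4.97) and 0.60 to 1.85 in D2 (median 1.30). 4930578G10Rik held 2 among 6, and all 4 others were at -1 or lower, with a median of -2.79.

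Every probeset of Myoc and of Zfp33b at a B6 mean of at least 3.5 was a member. Myoc encodes myocilin, a secreted glycoprotein known for its role in glaucoma, and held 4. Its gene median was 3.63 to 4.95 in B6 (median 4.24) and 0.24 to 1.06 in D2 (median 0.74), and the differences of its members ranged from -3.93 to -2.91. Zfp33b, a zinc finger gene, held 2, with differences of -3.57 ± 0.17 and -2.57 ± 0.16 (SE). Its gene median was 3.03 to 4.30 in B6 (median 3.88) and 0.39 to 1.10 in D2 (median 0.76). Its signal in B6 was thus close to the limit of the rule. Zfp951 held 1 member among 3 probesets, at 4.05 to 5.40 in B6 (median 4.67) and -0.21 to 1.17 in D2 (median 0.22), and the other 2 were at -2.04 and -1.96. Its gene median was 5.41 to 5.98 in B6 (median 5.86) and 2.87 to 4.20 in D2 (median 3.70). Zfp951 as a whole thus kept a higher D2 level than Myoc and Zfp33b.

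The D2 level of the gene was also higher in most of the remaining gene-wide genes. Etnppl, which encodes a phospho-lyase that breaks down phosphoethanolamine and is expressed in astrocytes, had 1 member among 15 probesets, and all 14 others were at -1 or lower (median -2.15, range -2.46 to -1.25). Its gene median was 5.62 to 6.34 in B6 (median 6.18) and 4.02 in D2 (median; 3.98 ± 0.31, mean and SD), so the gene was lower in D2 but well above the level of the members. Myo7a, the unconventional myosin of hair cells, had 1 member among 33, and 24 of the 32 others were at -1 or lower (median -1.75). Its gene median was 4.03 to 4.83 in B6 (median 4.49) and 2.72 to 3.05 in D2 (median 2.79). The astrocyte markers Aqp4 (7.51 ± 0.18 in B6 and 7.64 ± 0.16 in D2, SD) and Slc1a2 (9.22 ± 0.19 and 9.14 ± 0.12) differed less than Etnppl, and Gfap was at 6.66 ± 0.21 and 5.86 ± 0.37.

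Tnni1, the slow skeletal muscle form of troponin I, held 2 members among 4 probesets, and the other 2 were at -2.03 and -1.21. Mcm6, a subunit of the replicative helicase, held 2 among 9. Of its 7 others 6 were at -1 or lower and 1 was at 0.22. Rec8, a cohesin subunit of meiosis, held 2 among 14, with a median of -1.28 over the 12 others. In these 3 genes the gene median in D2 was 2.15, 2.15 and 2.73 on average, against 4.42, 4.08 and 4.29 in B6.

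The last genes of this class held 1 member each. They were the acetyltransferase-family gene Nat8f4 (1 of 6, others at a median of -2.89), Gm5148 (1 of 2, the other at -2.86, with a gene median of 0.87 ± 0.26 in D2, SD), 4833420G17Rik (1 of 16, others at -1.55) and Tceanc2 (1 of 9, others at -1.63). Tceanc2, named for a domain shared with a transcription elongation factor, was not uniform: 5 of its 8 others were at -1 or lower and 3 were above 0, the highest at 1.05. Summed over the 16 genes, 102 of the 122 others were at -1 or lower, against 0.778% of all named probesets with a B6 mean of at least 3.5, and 1 was at 1 or higher. The median that defined the class fixed this excess. The gene medians of B6 and D2 mice did not overlap in any of the 16. These medians include the members, and the share over all genes was not computed, so nothing is read from this.

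**Figure D2:**
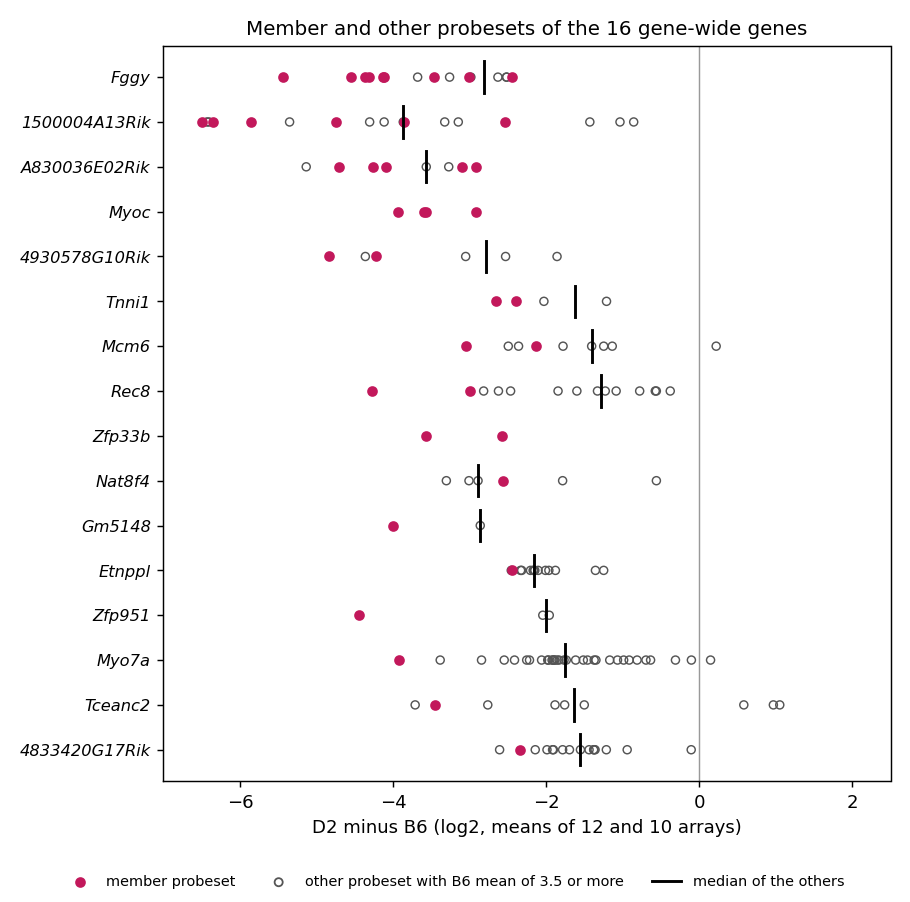
D2 minus B6 difference (log2, x axis) of each probeset with a B6 mean of at least 3.5 in the 16 gene-wide genes; filled points are members, open points the others and bars the median of the others. In Fggy, 1500004A13Rik, A830036E02Rik and Myoc nearly all points lie far below 0, whereas Tceanc2 has 3 points above 0.

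The 9 intermediate genes each held 1 member and a partial difference elsewhere. Apoa2, an apolipoprotein of high-density lipoprotein, had its member at 3.10 to 4.34 in B6 (median 3.93) and 0.25 to 2.15 in D2 (median 1.21), and its 2 others at a median of -0.98. Sft2d2, a vesicle transport gene, had 1 member among 19, with 7 of the 18 others at -1 or lower. Emc10, of the membrane protein insertion complex of the endoplasmic reticulum, had 1 member among 12 (-4.12 ± 0.13, SE), with 2 of 11 others at -1 or lower. Pcdhgb6, Sbsn, Fam163a, Nsun7, Zfp420 and Zfp788 had medians of the others from -0.86 to -0.53. Of all 52 others in the class, 12 were at -1 or lower.

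In the 54 local genes most other probesets differed little between the strains. In 40 of them no other probeset was at -1 or lower, and in 27 the median of the others was between -0.2 and 0.2. The medians ranged from -0.49 to 0.88, and 34 genes had at least 10 others. In 14 genes at least 1 other probeset was at -1 or lower, and in some it was as low as the member: Ptpro, a receptor tyrosine phosphatase gene, had its member at -2.60 and 1 other at -3.96, and Rint1 had its member at -4.15 and 1 other at -4.10. Members made up a median of 6.78% of a local gene's probesets at that level. Of the 912 others, 35 were at -1 or lower and 2 at 1 or higher, 1 in Slc7a11 (1.39), the cystine transporter, and 1 in Ociad1 (1.07).

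Fxyd7, which encodes a regulator of the sodium pump, had its member at 6.26 to 7.44 in B6 (median 6.93) and at -0.25 to 0.93 in D2 (median 0.50), a measured difference of -6.44 ± 0.14 (SE). Its 7 others were at a median of 0.06 and ranged from -0.10 to 0.33. Metap2, a methionine aminopeptidase, was alike, with its member at 5.23 to 7.12 in B6 (median 6.07) and -0.40 to 0.59 in D2 (median 0.08), and its 12 others at -0.31 to 0.35. In the member of either gene, no D2 mouse came within 4 log2 units of the lowest B6 mouse. These examples were chosen for a large difference without overlap, so nothing is read from this. The rest of both genes lay close to 0.

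Several members of this kind lay in long genes with many probesets. The pyruvate carboxylase gene Pcx had its member at 6.49 to 7.20 in B6 (median 6.76) and 0.24 to 1.81 in D2 (median 0.99), and its 22 others at -0.53 to 0.12. Ndrg3 had its member at 4.64 to 6.42 in B6 (median 5.87) and -0.46 to 0.39 in D2 (median -0.01), and its 23 others at -0.46 to 0.01. Ptprj, a receptor tyrosine phosphatase gene, had its member at 5.31 to 6.64 in B6 (median 5.87) and -0.15 to 1.46 in D2 (median 0.21), and its 37 others at -0.24 to 0.54. In these 3 genes no other probeset approached the member.

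The same held for Tiam1, an activator of the GTPase Rac, with its member at -4.50 ± 0.17 (SE) and 42 others at -0.07 to 0.36. Klhl20, a substrate adaptor of a ubiquitin ligase (-5.65 ± 0.15), had 20 others at -0.71 to 0.32. Rpap3, a chaperone cofactor (-5.13 ± 0.15), had 15 others at -0.67 to 0.12. Sh3glb1, which encodes endophilin B1 (-4.81 ± 0.24), had 14 others at -0.22 to 0.36. The Sh3glb1 member had the smallest SD in D2 of all members, 0.081, and ranged from -0.04 to 0.24 there and from 3.44 to 6.30 in B6. Pcdhgb5, a protocadherin of the gamma cluster (-5.69 ± 0.20), had only 4 others, at -0.22 to 0.25. Ociad1 (-5.04 ± 0.17) had 15 others with a median of -0.28. Mertk, a receptor tyrosine kinase for the uptake of dying cells (-5.33 ± 0.15), had 22 others with a median of -0.35 and 1 of them at -1.51.

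**Figure D3:**
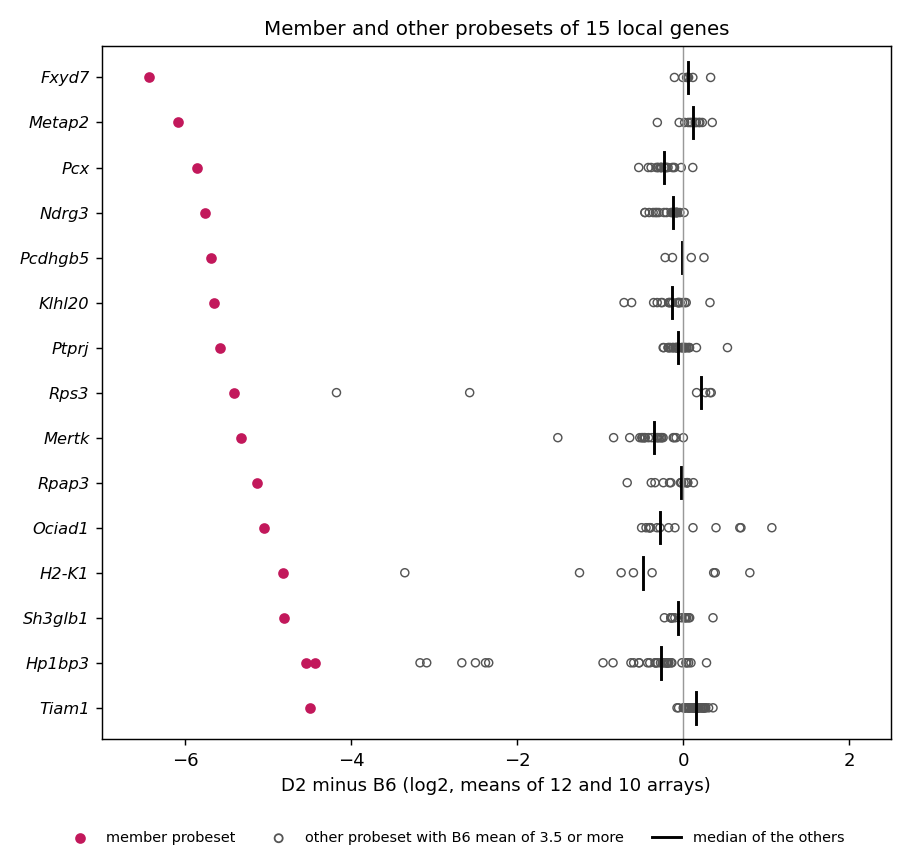
D2 minus B6 difference (log2, x axis) of each probeset with a B6 mean of at least 3.5 in 15 local genes; filled points are members, open points the others and bars the median of the others. The members lie between -6.44 and -4.44, apart from a dense group of others near 0, and Rps3, H2-K1 and Hp1bp3 have further probesets in between.

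In 9 local genes at least 3 probesets were at -1 or lower. Whether these lie next to each other along the gene is not known here. Hp1bp3, a heterochromatin-binding gene, had 8 of 39 at -2.34 or lower, 2 of which were members, and the other 31 at -0.96 or higher. Its leading member was at 3.14 to 6.33 in B6 (median 5.42) and 0.12 to 1.28 in D2 (median 0.73). The 6 that were low without being members ranged from -3.17 to -2.34 and kept D2 means of 2.35 to 3.82. A clear gap thus separated the low from the other probesets of Hp1bp3. 5830417I10Rik had 12 of 74 at -1 or lower without such a gap, the nearest values being -1.06 and -0.90. Its 2 members were at -2.99 ± 0.20 and -2.65 ± 0.15 (SE), and its lowest other was at -3.55.

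Rps3, a protein of the small ribosomal subunit, had 3 of 7 probesets at -2.57 or lower and the other 4 at 0.16 or higher. Its member was at 4.61 to 6.46 in B6 (median 5.23) and -0.31 to 0.22 in D2. H2-K1, a class I histocompatibility gene with close paralogs and different alleles in these strains, had its member at 4.73 to 6.06 in B6 (median 5.54) and -0.03 to 1.09 in D2 (median 0.67). It had 3 of 9 probesets at -1.25 or lower, and its others reached 0.80. Eapp had 4 of 9 at -1 or lower, Kcnf1, a modifier subunit of potassium channels, 3 of 7, and Rint1 3 of 20.

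Mid1, an X-linked ubiquitin ligase gene of microtubules, had the most members of any local gene, 4 of 43. Its leading member was at 4.42 to 6.01 in B6 (median 4.87) and at 0.01 to 1.51 in D2 (median 0.59), a difference of -4.23 ± 0.19 (SE). The other 3 members were at -4.11, -3.01 and -2.88. The 39 others ranged from -0.91 to 0.74 with a median of -0.48, and none was at -1 or lower. This median was just above the cut of -0.5, and 21 of the 39 lay above -0.5, so the class of Mid1 rests on the cut. Of the Mid1 probesets with a B6 mean of at least 3.5, none lay between -2.88 and -0.91. By limma, 4 of the 39 others were called lower. Ssb, which encodes the RNA-binding La protein, had 2 members among 29, at -2.78 and -2.42, with the 27 others at -0.53 to -0.11.

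**Figure D4:**
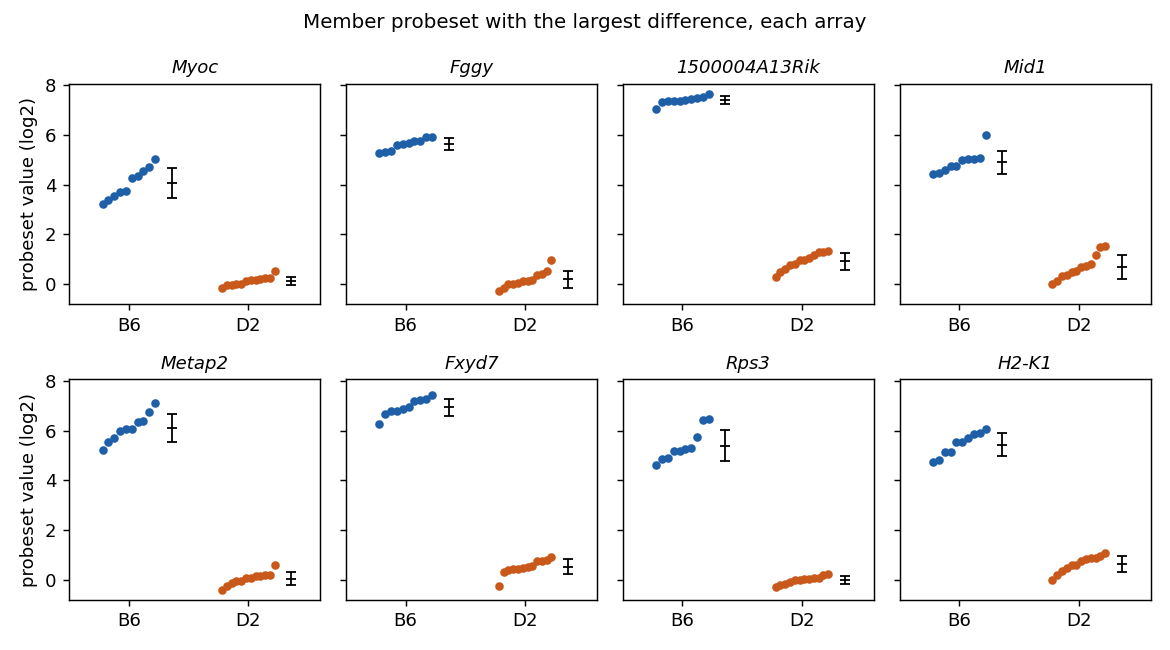
Log2 value of the member probeset with the largest difference in 8 genes, 1 point per array (10 B6, 12 D2, sorted by value), with the mean and SD beside the points. B6 and D2 mice do not overlap in any of these 8 probesets, which were chosen on the strain difference, so nothing is read from this. In the Mid1 probeset, B6 replicate 8 stands above the other B6 mice at 6.01.

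Gene lists of brain functions held few member genes or none. None of 36 measured genes of the postsynaptic density and glutamate receptors, 28 of synaptic vesicle release, 12 GABA-A receptor subunits and 32 voltage-gated channels held a member, nor did 4 globins or 54 olfactory and vomeronasal receptors. With 0.506% of all genes holding a member, lists of this size say little: the first 4 lists hold 108 genes together. Channel genes outside the lists did hold members, among them Kcnf1, the cation channel gene Trpm3 and the gap junction gene Gja5. Members occurred in 1 of 10 genes of the sodium pump (Fxyd7), 1 of 25 of pyruvate and citric acid metabolism (Pcx), 2 of 43 clustered protocadherins (Pcdhgb5 and Pcdhgb6), 1 of 22 histocompatibility genes (H2-K1), 1 of 88 ribosomal protein genes (Rps3) and 2 of 320 solute carriers (Slc66a1 and Slc7a11). The share was 6 of 1178 uncharacterised loci, or 0.509%, close to the 0.506% of all genes. Zinc finger genes had 7 of 303, or 2.31%, which was not tested: Zfp33b, Zfp951, Zfp874a, Zfp420, Zfp788, Zfp947 and Zfp961. The median gene difference in that list was -0.060, against -0.062 over all genes, so the members were exceptions within the list. The Zfp874a member was at -5.13, with its 2 others at a median of -0.19. Zinc finger and protocadherin genes have close relatives, and a probeset may read more than 1 of them.

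No marker gene of a brain cell type or of another tissue held a member, of 30 with a probeset at a B6 mean of at least 3.5, a number too small to read against the 0.506% of all genes. Neuronal markers were between 8.23 (Gad1) and 10.0 (Snap25) in B6 and between 8.28 and 9.91 in D2, which fits the label of whole brain. The liver, pancreas, heart and T cell genes Alb, Ins2, Myh6 and Cd3e were between 0.48 and 1.42 in B6 and between 0.61 and 1.51 in D2. Even so, 3 of these 4 genes had a probeset at a B6 mean of at least 3.5, so that level alone does not show detection in B6. Of the red blood cell markers, Hbb-b1 was at 7.15 ± 0.39 in B6 and 4.41 ± 0.45 in D2 (SD), Alas2 at 3.80 ± 0.52 and 2.99 ± 0.36, and Slc4a1, near the array medians, at 1.55 ± 0.22 and 1.35 ± 0.15. The median difference of the 4 globin genes was 0.0019. Of the choroid plexus markers, Folr1 differed by -0.68, Otx2 by -0.46 and Ttr by -0.16. The part of such cells in the members was not tested.

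Chromosome 1 carried the most member genes. It held 15, or 1.61% of its 932 genes with a probeset at a B6 mean of at least 3.5, against 0.506% over all chromosomes. Chromosome 3 followed with 7 of 802 (0.873%), chromosome 5 with 8 of 966 (0.828%) and chromosome 7 with 9 of 1237 (0.728%), while chromosome 9 held 1 of 899 (0.111%). In the gene order of GRCm38.p6, 12 of the 15 lay in the stretch from Tnni1 to Pfdn2, which spans 235 of the 1215 array genes of chromosome 1. These were Tnni1, Tnnt2, Ier5, Fam163a, Rasal2, Klhl20, Myoc, Kifap3, Sft2d2, Nr1i3, Apoa2 and Pfdn2. The stretch was chosen after its genes were seen, and the share of its genes with a member was 5.11%, against 0.376% of all 20996 array genes placed. Its members were of every kind: Myoc and Tnni1 were gene-wide, Fam163a, Sft2d2 and Apoa2 intermediate, and the other 7 local.

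Some member genes were close neighbours. Zfp33b and Zfp951 on chromosome 5 are adjacent among the array genes, and both were gene-wide. With 1 array gene between them were Tnni1 and Tnnt2, Nr1i3 and Apoa2, Pcdhgb5 and Pcdhgb6, Cenpc1 and Uba6, and Zmynd19 and Mrpl41. Of these, Tnni1 and Tnnt2 encode subunits of the troponin complex of muscle. The Tnnt2 member was at 3.17 to 4.59 in B6 (median 4.14) and 0.05 to 1.59 in D2 (median 0.77), but the other 4 probesets of Tnnt2 had a median of -0.23, in contrast to the gene-wide Tnni1.

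**Figure D5:**
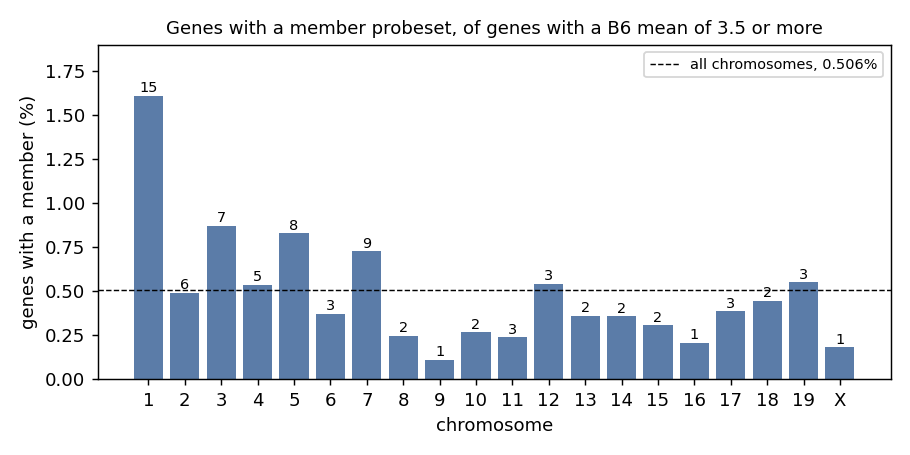
Share of genes with a member probeset among the genes with a probeset at a B6 mean of at least 3.5 (y axis, percent) on each chromosome (x axis); numbers above the bars count the genes and the dashed line is the share over all chromosomes, 0.506%. Chromosome 1 stands highest at 1.61% with 15 genes.

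The reverse pattern was less frequent. Probesets with a D2 mean of at least 3.5 and a B6 mean of at most 1.5 numbered 127, against the 362 members, and their named probesets belonged to 11 genes. None of these was among the 80 member genes, so no gene had probesets low in D2 and others low in B6 by these limits. Over all probesets, limma called 22430 of 1190406 for strain, with 13051 lower in D2 (58.2%) and 9379 higher. All 362 members were called lower, against 1.1% of all probesets and 2.92% of those with a B6 mean of at least 3.5, as the rule makes nearly certain. With the array median as a covariate the split over all probesets was 5718 higher and 4453 lower (43.8% lower). In the other settings tried the surplus of lower calls stayed. Centred arrays gave 7597 higher and 15604 lower, and a filter on low values gave 9947 and 13318. The array medians were mostly lower in B6 (1.41 to 1.47) than in D2 (1.45 to 1.51), so this covariate is tied to strain. With it 358 members kept a call, from which nothing is read because the rule used this contrast.

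The file names carry a letter, A on 18 arrays and B on 4, with 2 of the B arrays in each strain. The rule did not use the letter, so the members could be tested on it. In a limma fit with strain and letter, 4 members differed at a Benjamini-Hochberg adjusted p under 0.05, 2 higher and 2 lower on the B arrays, against 1.87% of all probesets and 5.39% of those with a B6 mean of at least 3.5. At an unadjusted p under 0.05 there were 43 members (11.9%), against 13.8% of all probesets. After a filter on low values 12 members were called (3.31%), against 4.90% of the probesets then tested. Among the 4 members called without the filter, the named one was a member of A830036E02Rik, lower on the B arrays. Its letter difference in that limma fit was -1.21 ± 0.26 (SE, adjusted p = 0.0147). Its strain difference was -4.09 ± 0.27 (SE), with no overlap of the strains. On the A arrays alone the rule gave 368 probesets, 338 of them members, and on the 4 B arrays alone 476, of which 279 were members.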

How the data were processed

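Total RNA of 22 mouse brains was measured on exon arrays. The authors deposited log2 values per probeset. The submitters' processing notes list RMA together with affy 1.12.2 and R 2.6.0. This method subtracts background and scales arrays by quantiles, which can shift values near the floor. Its options and the probeset build are not given in the sources used here. Of 1201338 probesets, 10932 were empty and left out. Arrays have no read depth, so their number limits the precision.

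The members were selected on strain means in Python 3.11.15 (pandas 2.3.3). Strain and file letter were fitted over all 1190406 probesets with limma 3.58.1 in R 4.3.3 (lmFit, eBayes, Benjamini-Hochberg, no filter), after a test on simulated data. Standard errors are from that fit. Each array held 1 mouse, so errors measure the spread between mice. Genes were named only from probesets with 1 platform symbol. Of the member genes, 66 symbols were current in GRCm38.p6 and 14 were updated through a synonym (Etnppl, for example, was Agxt2l1). Coordinates are those of the RefSeq table only.

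Members, classes and lists were chosen with earlier results of these data known. Named were genes with 3 or more members, genes in which all probesets were members, the 15 local genes with the largest difference among those with no overlap and at least 3 others, the 6 such unnamed members, up to 3 genes per list, those nearest to the limits and neighbouring genes. The remaining gene-wide and intermediate genes, the sections of local genes and the neighbours on chromosome 1 were named after their values were seen. Alternatives were other limits, medians, centred arrays, a covariate, the file letter and leaving out each array. Figures were drawn with matplotlib 3.10.9.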

Additional observations from a re-analysis of the deposited data

Results flagged for a closer look

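In the leading member probeset of Mid1, B6 replicate 8 was at 6.01, and the other 9 B6 mice were between 4.42 and 5.06. The gap to the nearest mouse was 0.596 of the whole B6 range, beyond the critical value of Dixon's test for 10 values. The same mouse was the highest of its strain in the other 3 members of Mid1, at 6.12, 5.28 and 4.96. In the 39 other probesets of Mid1 its median was also the highest, at 5.79 against 4.65 to 5.45. Of 43 probesets examined in this way, this was the only one beyond the limit, and chance alone gives about 1 in 20. The cause was not tested.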

How the results depend on the processing

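The counts depended mostly on the limits. With a B6 mean of at least 4.0 and a D2 mean of at most 1.0, 154 members in 41 genes remained, and with 3.0 and 2.0 there were 1049 in 202 genes. Medians in place of means gave 400 members (349 shared) in 86 genes, and centred arrays 369 (362 shared) in 83. Leaving out each array in turn gave 350 to 375 members, 78 to 84 genes, 16 to 18 gene-wide and 50 to 55 local genes. Other settings for the classes gave 16 to 17 gene-wide and 48 to 54 local genes. With the array median as covariate 10171 probesets were called between the strains in place of 22430. For the file letter, 12 members (3.31%) were called after a filter on low values, in place of 4 (1.10%), against 4.90% and 1.87% of all probesets tested. None of the 43 named differences changed direction, which was nearly certain because the rule chose the members on this contrast. On the 4 letter B arrays alone, 16 moved by more than the spread between mice. No paired analysis was possible because the replicate numbers of the strains do not overlap. Signal near background limits every D2 value here.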
